A study of Oryza sativa with 2 samples.

Results

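The 6 genes described here encode enzymes that dismantle chlorophyll in rice, namely *SGR* (LOC_Os09g36200), *NYC1* (LOC_Os01g12710), *NOL* (LOC_Os03g45194), *NYC3* (LOC_Os06g24730), pheophorbide a oxygenase (*PAO*, LOC_Os03g05310) and red chlorophyll catabolite reductase (*RCCR*, LOC_Os10g25030). They were picked by their locus IDs as genes of this pathway, and all 6 had values among the 26715 loci of the deposited expression table. Leaf RNA was sequenced from seedlings of *japonica* rice cv. Zhonghua11 and of a mutant isolated after EMS mutagenesis of the same cultivar. Both were kept at a constant 32 °C with 12 h of light per day at 300 μmol per m2 per s. This is a heat-stress condition in which the mutant seedlings are albino. The mutant carries a single-base change in *WLP2*, which encodes a chloroplast protein associated with the plastid-encoded RNA polymerase. Each genotype has 1 library, so no difference given here has a replicate check and none has a p-value. The sample label names the mutant White Leaf and Panicle 2 without an allele, and the column headers of the expression table call it *wlp2s*, so it is called the *wlp2s*-labelled library. A further deposited table, not used here, holds the same values under headers that name *wlp1* in place of *wlp2s*.

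Chlorophyll is broken down in the plastid in a fixed order of steps. Chlorophyll b is first reduced on the way back to chlorophyll a, magnesium and the phytol tail are then removed, and the ring of the remaining pheophorbide a is opened and reduced to colourless products. The pathway is best known from senescing leaves, where rice lines without *SGR*, *NYC1*, *NOL* or *NYC3* stay green. The comparison asks whether the transcripts of this pathway differ in the albino leaf.

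None of the 6 genes reached a 2-fold difference between the libraries. On the log2 scale described below, 2.8% of all loci reached that size. All 6 ratios lay below equal levels, and 49.7% of all loci also had lower values in the *wlp2s*-labelled library. *NYC3*, which encodes the pheophytinase that removes the phytol tail, stood apart and was 1.56-fold lower in the *wlp2s*-labelled library (exact 95% interval 1.47 to 1.66). *PAO* and *RCCR*, which act directly after it, were 1.18-fold and 1.21-fold lower. *NYC1*, *NOL* and *SGR*, which act before it, had intervals that include equal levels. *NOL* has few reads, and its ratio of 0.870 was close to the 0.845 of *PAO*. By counting intervals, the ratios of *NOL* and *SGR* could not be told apart from those of *PAO* and *RCCR*, while that of *NYC1* lay above both. Each fold divides counts scaled to the depth of the libraries, and its interval covers counting error only.

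The wild-type library holds 9080323 counts and the *wlp2s*-labelled library 9327778. *WLP2* itself (LOC_Os01g63220) was not lower but 1.38-fold higher in the *wlp2s*-labelled library (1.09 to 1.74). By qRT-PCR, the paper reports less *WLP2* mRNA in *wlp2s* than in wild-type, at normal and at high temperature, so the direction here is the opposite. The mutation is a single-base change, and whether it alters the level of the transcript was not tested here. The *WLP2* level thus does not bear out the label, and every direction given here rests on the labels alone. Of the 5 green-leaf loci examined, 3 of the Rubisco small subunit and 2 of the light-harvesting antenna, all were abundant in both libraries. The 5 loci together were 1.06-fold lower in the *wlp2s*-labelled library, with 2 of the 5 higher. The antenna locus LOC_Os01g41710 was 0.507 of wild-type and LOC_Os09g17740 was 0.742. The 2 higher loci were both of the Rubisco small subunit, LOC_Os12g19381 at 1.102 of wild-type and LOC_Os12g19470 at 1.27. The third Rubisco locus, LOC_Os12g17600, was at 0.879. Dividing-cell markers, 3 loci annotated as B-type cyclin-dependent kinases, were weak in both libraries and lower in the *wlp2s*-labelled library, with 103 wild-type counts against 65 and a ratio of 0.614 (0.443 to 0.846). Of these 3, all had ratios below 1 and 1 had an interval that left out equal levels, LOC_Os01g67160 at 0.568 (0.391 to 0.817). The part of such differences in the results below was not tested. In whole leaves, fewer cells of a type and less RNA per cell cannot be told apart.

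*NYC1* and *NOL* encode related short-chain dehydrogenases that together form chlorophyll b reductase in rice, the enzyme that starts the removal of chlorophyll b. The deposited annotation describes *NYC1* only as a Rossmann-fold protein and *NOL* as NYC1-like, and its name non-yellowing 1 belongs to *SGR*, after the Arabidopsis gene. Wild-type had 1619 counts of *NYC1* and the *wlp2s*-labelled library had 1614, or 88.8 and 86.3 RPKM (reads scaled to the length of the transcript and to the depth of the library). The ratio to wild-type was 0.970 (0.905 to 1.04), the closest to equal levels among the 6. *NOL* was the weakest of the 6, with 198 counts and 11.6 RPKM in wild-type against 177 counts and 10.1 RPKM in the *wlp2s*-labelled library. Its ratio of 0.870 (0.706 to 1.07) includes equal levels, and a difference of *NOL* was not detectable at this depth. Both reductase genes together gave a ratio of 0.960 (0.898 to 1.02).

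*SGR* encodes the stay-green protein, a magnesium dechelatase that turns chlorophyll a into pheophytin a. Wild-type had 565 counts and the *wlp2s*-labelled library 558, or 40.5 and 38.9 RPKM. The ratio was 0.961 (0.854 to 1.08). By counting error alone, the *SGR* level could lie between 0.854 and 1.08 of wild-type, so these counts do not show a difference.

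For *NYC3*, wild-type had 2922 counts and the *wlp2s*-labelled library had 1921. Its wild-type level of 107.6 RPKM was the highest of the 6, and its level of 68.7 RPKM in the *wlp2s*-labelled library was below that of *NYC1*. Of all reads of the 6 genes, it took 38.3% in wild-type but 30.6% in the *wlp2s*-labelled library. The table lists 3 transcript models of *NYC3*, and each was lower. Model 1 was at 44.9 and 28.4 RPKM, model 2 at 29.3 and 18.9 RPKM, and model 3 at 33.3 and 21.4 RPKM. The ratios of the 3 models were 0.632, 0.645 and 0.643, but these are not separate measurements, because reads that fit several models were divided among them. Added up, the counts of the models are whole in either library, so no reads appear to have been shared with another locus. The 2 models of *NYC1* had ratios of 0.963 and 0.978.

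**Figure D1:**
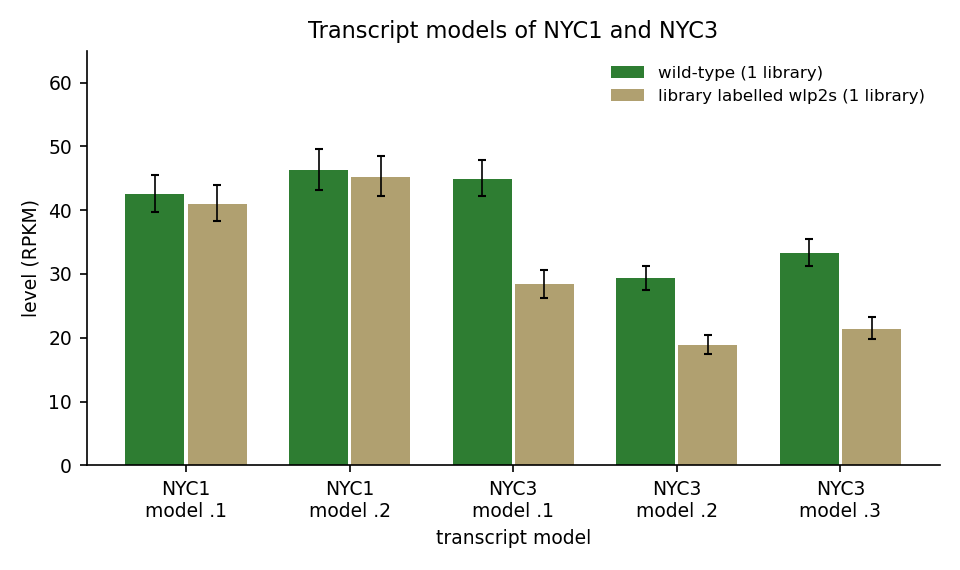
Levels in RPKM (vertical axis) of the 2 transcript models of NYC1 and the 3 models of NYC3 (horizontal axis) in the wild-type library (green) and the wlp2s-labelled library (tan), with exact 95% Poisson intervals for counting error. All 3 NYC3 models are lower in the wlp2s-labelled library, from 44.9 to 28.4 RPKM for the first, and the NYC1 models have overlapping intervals.

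*PAO* encodes the oxygenase that opens the ring of pheophorbide a, and it carries a Rieske iron-sulphur domain. It had 1565 counts and 76.3 RPKM in wild-type against 1358 counts and 64.4 RPKM in the *wlp2s*-labelled library, a ratio of 0.845 (0.785 to 0.909). *RCCR* encodes the reductase that acts on the product of *PAO*, and is annotated after the Arabidopsis gene ACCELERATED CELL DEATH 2. It had 766 counts and 68.3 RPKM in wild-type against 648.5 counts and 56.3 RPKM in the *wlp2s*-labelled library, a ratio of 0.824 (0.741 to 0.916). *PAO* and *RCCR* together were at 0.838 of wild-type (0.789 to 0.890).

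The reads of *RCCR* are less certain than those of the other 5 genes, since its count in the *wlp2s*-labelled library is not whole. The loci LOC_Os10g25020 and LOC_Os10g25040, numbered on either side of it on chromosome 10, carry the same annotation. LOC_Os10g25020 had 254 wild-type counts against 251.5 in the *wlp2s*-labelled library, and together with *RCCR* it had 1020 and 900 counts. Both loci thus appear to share reads. The 3 loci together gave a ratio of 0.862 (0.789 to 0.943), which is still below equal levels by its counting interval, whereas LOC_Os10g25020 alone gave 0.964 (0.806 to 1.15).

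**Figure D2:**
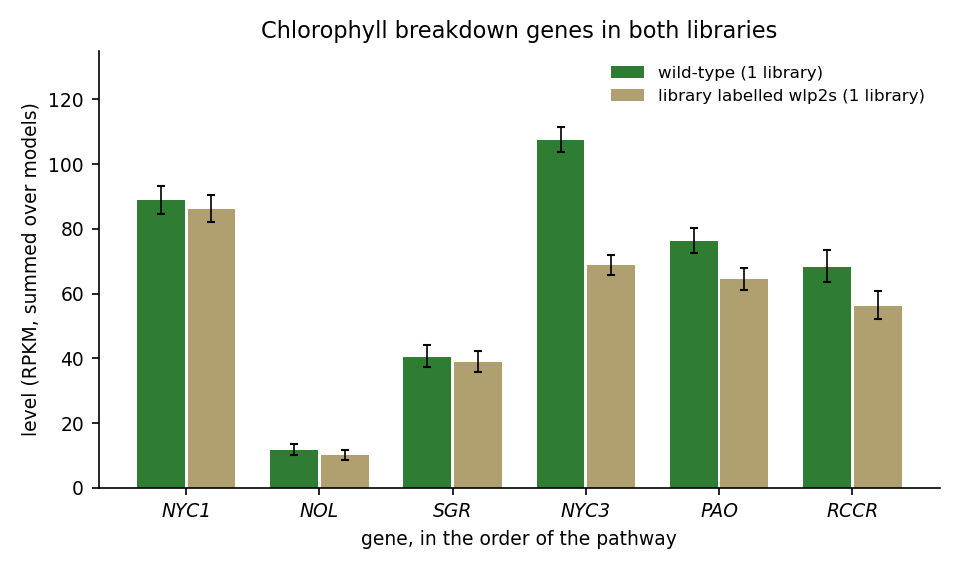
Levels in RPKM, summed over transcript models (vertical axis), of the 6 chlorophyll breakdown genes in the order of the pathway (horizontal axis) in wild-type (green) and in the wlp2s-labelled library (tan), 1 library each, with exact 95% Poisson intervals for counting error. NYC3 falls from first to second place, from 107.6 to 68.7 RPKM, and the bars of NYC1, NOL and SGR differ by less than their intervals.

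The 6 genes spanned a wide range of levels. In wild-type the order was *NYC3*, *NYC1*, *PAO*, *RCCR*, *SGR* and *NOL*, and of neighbours in this order only *PAO* and *RCCR* had overlapping counting intervals. In the *wlp2s*-labelled library the order was *NYC1*, *NYC3*, *PAO*, *RCCR*, *SGR* and *NOL*, and only *NYC3* and *PAO* overlapped. *NYC3* was above 96.1% of all loci in its wild-type level and *NOL* above 55.9%. Together the 6 genes held 7635 wild-type counts against 6276.5 in the *wlp2s*-labelled library, a ratio of 0.800 (0.774 to 0.828). Without *NYC3*, which has the most reads, the other 5 gave 0.900 (0.863 to 0.938).

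Differences between loci were compared as log2(RPKM + 1), the *wlp2s*-labelled value less that of wild-type, at the 18639 loci whose RPKM reached 1 in either library. All 6 genes passed this filter in both libraries. A size of 1 or more, either way, was reached by 0 of the 6, against 2.8% of all loci. *NYC3* had a difference of -0.64 on this scale, and 3.44% of all loci had a lower value. Of the 6, only *NYC3* was at least 1.5-fold lower on this scale, a size that 4.2% of all loci reached in that direction. *RCCR* had a difference of -0.27, *PAO* of -0.24 and *NOL* of -0.18, and *SGR* and *NYC1* had -0.06 and -0.04. Smaller differences than that of *NOL* were found at 47.8% of all loci, smaller ones than that of *PAO* at 58.5% and smaller ones than that of *RCCR* at 64.2%. For *NYC3* this share was 91.1%.

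**Figure D3:**
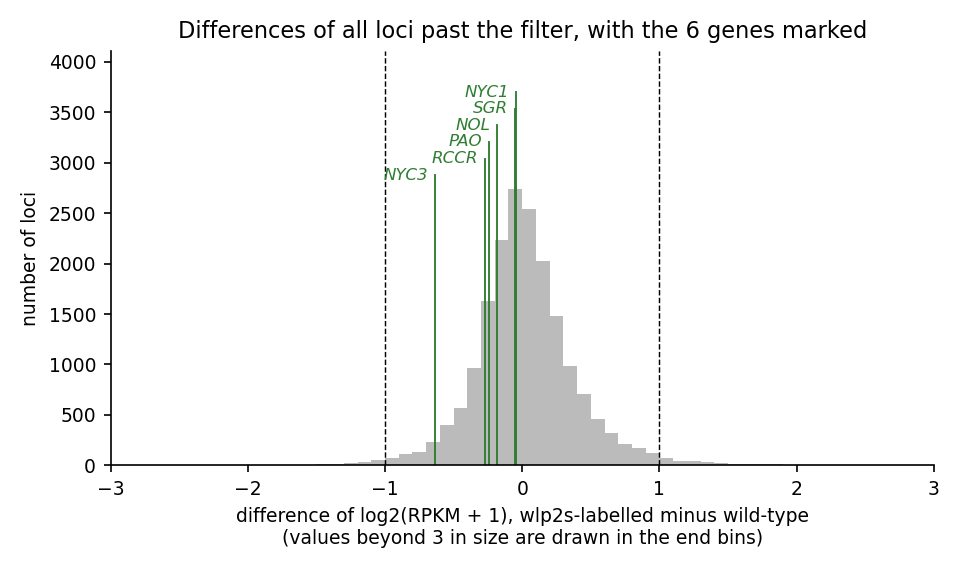
Number of loci (vertical axis) by the difference of log2(RPKM + 1), wlp2s-labelled library minus wild-type (horizontal axis), for the 18639 loci past the filter, with the 6 genes as green lines and the size rule of 1 as dashed lines. All 6 lines lie below 0 and inside the dashed lines, with NYC3 at -0.64 apart from the others.

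All 6 differences were below 0, as were 49.7% of all loci and 50.1% of the loci whose RPKM reached 10 in either library, a level that each of the 6 also reached. The median of the 6 was -0.21, beside 0.00181 for all loci. The counting interval of the ratio lay below 1 for 3 of the 6, *NYC3*, *PAO* and *RCCR*, against 15.4% of all loci and 20.7% of those that reached an RPKM of 10. It lay above 1 for 0 of the 6, against 16.1% of all loci. With 1 library per genotype, these shares describe the libraries and do not separate the genotype from other differences between the samples.

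The ratios of the genes were compared in all 15 pairs, with exact conditional intervals on rounded counts. These intervals cover counting error only and were not adjusted for the number of pairs. *NYC3* was already known to have the lowest ratio, so its place below each of the other 5 genes was fixed in advance. The intervals were not adjusted for this choice and describe only the size of the gap in these libraries. The ratio of *NYC3* was 0.666 of the *SGR* ratio (0.583 to 0.760), 0.659 of the *NYC1* ratio (0.602 to 0.722) and 0.735 of the *NOL* ratio (0.592 to 0.914). Against the steps that follow it, it was 0.758 of the *PAO* ratio (0.690 to 0.832) and 0.777 of the *RCCR* ratio (0.688 to 0.877). Among the 10 pairs without *NYC3*, the interval left out equal ratios in 2, where *PAO* and *RCCR* were at 0.870 (0.786 to 0.963) and 0.849 (0.747 to 0.964) of the *NYC1* ratio. *PAO* and *RCCR* had similar ratios, with a quotient of 1.02 whose interval of 0.901 to 1.17 bounds the difference between them. *SGR* and *NYC1* had a quotient of 0.991 (0.863 to 1.14).

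In the deposited annotation all 6 genes carry the plastid term of the Gene Ontology, and all but *SGR* carry the catabolic process term. Both terms follow from the role by which the genes were chosen. KEGG assigns *NYC1*, *NOL*, *PAO* and *RCCR* to porphyrin and chlorophyll metabolism, but neither *SGR* nor *NYC3*. The genes are scattered over the genome, on chromosomes 1, 3, 6, 9 and 10 by their locus IDs, and the genome build is not given in the sources used here.

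The same comparison was made for 9 further loci of chlorophyll breakdown and of the interconversion of chlorophyll a and b, chosen by ID or by annotation. Of these 9, 0 passed the size rule, against 2.8% of all loci, and their median difference was -0.05. The chlorophyllase locus LOC_Os10g28370, annotated for the enzyme once taken to remove the phytol tail in senescing leaves, had a wild-type level of 13.3 RPKM and was at 15.1 RPKM in the *wlp2s*-labelled library. Its ratio of 1.14 (0.916 to 1.41) includes equal levels, while the pheophytinase gene *NYC3* was lower. LOC_Os04g25400 belongs to the coenzyme F420 hydrogenase family, which in Arabidopsis includes the enzyme that follows chlorophyll b reductase. It was at 123 and 127 RPKM, with a ratio of 1.04 (0.977 to 1.10), close to those of *NYC1* and *SGR*. LOC_Os04g59610, which has no description, was at 21.5 and 22.0 RPKM.

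Loci related to *PAO* by their Rieske domain were also measured. LOC_Os10g41780, annotated to the same family as *PAO*, went from 210.1 RPKM in wild-type to 200.3 RPKM in the *wlp2s*-labelled library, a ratio of 0.953 (0.919 to 0.989). It was listed as chlorophyllide a oxygenase, an enzyme of chlorophyll synthesis and not of breakdown. Its neighbour LOC_Os10g41760, listed likewise, was at 6.95 and 6.51 RPKM, and the reads of both are in part divided. LOC_Os11g13850, a Rieske domain protein, had a ratio of 0.862 (0.798 to 0.931), and LOC_Os02g54980, annotated as the envelope protein TIC55, had a ratio of 0.912 (0.857 to 0.970). By counting interval 3 of the 9 were lower and 0 higher, against 15.4% and 16.1% of all loci. The ratio of *NYC3* was lower than that of each of these 9 loci, and its interval overlapped only that of LOC_Os10g25040, which rests on about 31 counts in each library.

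**Figure D4:**
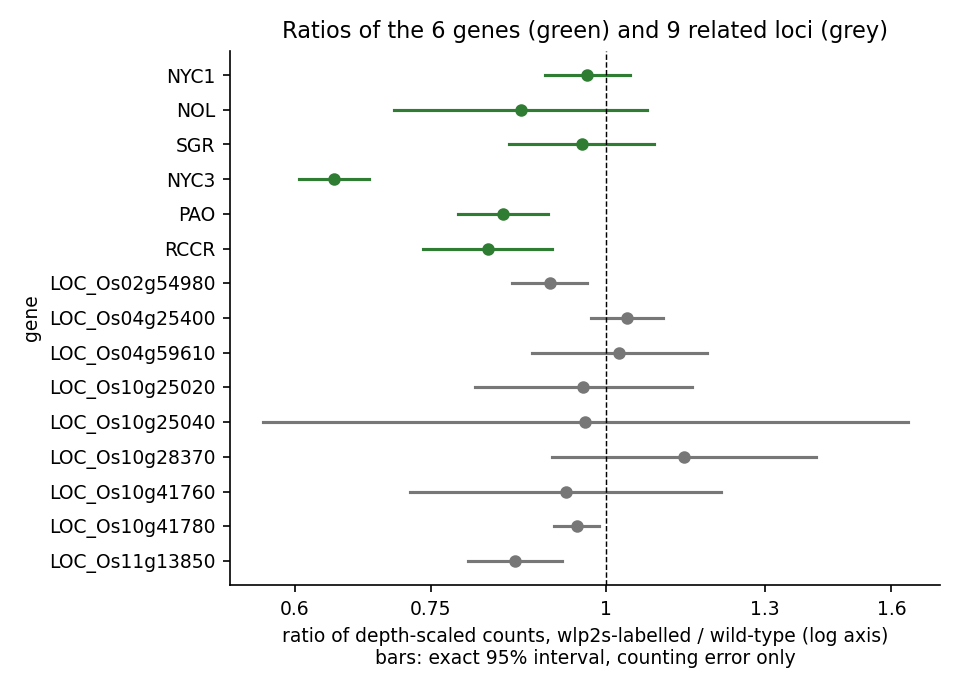
Ratio of depth-scaled counts, wlp2s-labelled library over wild-type (horizontal log axis), for the 6 chlorophyll breakdown genes (green) and 9 related loci (grey), with exact 95% intervals for counting error and a dashed line at equal levels. NYC3 lies farthest to the left at 0.640, PAO and RCCR lie at 0.845 and 0.824, and the chlorophyllase locus LOC_Os10g28370 lies at 1.14 with an interval that includes 1.

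Of 5 transcription factor loci known from work on leaf yellowing, 4 had values, all with divided reads. LOC_Os03g21060, annotated as NAC domain containing protein 47, went from 49.4 RPKM in wild-type to 41.9 RPKM in the *wlp2s*-labelled library, a ratio of 0.849 (0.767 to 0.939), near those of *PAO* and *RCCR*. LOC_Os10g42430, a basic helix-loop-helix gene, had a ratio of 0.816 (0.724 to 0.919). LOC_Os04g38720, another NAC gene, was weak at 3.54 and 1.62 RPKM, with a ratio of 0.457 (0.267 to 0.762). The ethylene insensitive 3 family gene LOC_Os03g20790 went the other way, from 148 to 160 RPKM, a ratio of 1.08 (1.02 to 1.13). Their differences on the log2 scale were all under 1 in size, and only 2.8% of all loci reached that size.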

How the data were processed

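The authors sequenced leaf RNA as single-end reads on an Illumina HiSeq2500, and TopHat, Cufflinks and Cuffdiff are credited in the submitters' processing notes, with no version or role. The authors deposited estimated counts per transcript model, raw and partly fractional, and RPKM values, which are these counts scaled to transcript length and library depth. Another deposited table holds the authors' own comparison (fold change, P, FDR) and repeats the library values in 4 columns whose headers name *wlp1* and ZH11 instead of *wlp2s* and WT, and it was not used.

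Models of a locus were summed, which makes 26715 loci of 36450 models. The difference of log2(RPKM + 1) was taken at loci whose RPKM reached 1 in either library. It understates changes of weak genes. Ratios of counts scaled to total counts were given exact (Clopper-Pearson) 95% intervals, and levels exact Poisson intervals. Both cover counting error only, because spread between plants cannot be estimated from 1 library per genotype. Without molecular identifiers, copies of the same molecule could not be recognised and each was counted. The intervals may therefore be too narrow even for counting error. No test of the genotypes was possible with 1 library each. Whole counts were judged with a tolerance of 0.001.

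Named by rule were the 6 members, every locus with values in the lists of related and regulatory loci, and *WLP2*. The rule also covers the 3 senescence loci farthest from 0 each way among those that reached an RPKM of 5. Outside this rule, marker loci, synthesis loci and further senescence loci of the same annotations were named. The members and lists were chosen with earlier results of these data known. Search words for histone H4 and a root marker locus found no values, and the background at an RPKM of 10, the KEGG list and the joint count of the *RCCR* loci were added after seeing the data.

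Alternatives were the pseudocount, filter, size threshold, model and scaling, by edgeR 4.0.16 (TMM factors) and DESeq2 1.42.0 (size factors). Scripts ran in Python 3.11.15 (pandas 2.3.3, numpy 2.4.6, scipy 1.17.1), and the intervals and the size rule were tested on simulated Poisson counts. Such counts hold no spread between plants and no divided reads, so this checks the code and not the fit of the intervals to these libraries. The reference table of RefSeq genes lists no IDs of the kind in the deposited table, so gene names follow the locus IDs and the deposited annotation, and no sequence is shown.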

Additional observations from a re-analysis of the deposited data

How the results depend on the processing

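For each of the 6 genes, the log2 difference and the ratio moved by less than the counting interval under every alternative run: a pseudocount of 0.1 or 5, TMM factors, median-ratio size factors and the model with the most counts, and for the ratio also total counts without the 6 genes, antenna and Rubisco small subunit loci, and for *RCCR* the count with its neighbours. Summed reads of the 6 genes were 0.800 of wild-type, and 0.900 without *NYC3*. With a threshold of 1.5-fold in place of 2-fold, 1 of the 6 genes passed instead of 0, and 2005 loci instead of 522. Loci past the size rule numbered 1276 with a pseudocount of 0.1, 120 with a pseudocount of 5, and 269 at an RPKM of 5 or more. The medians of the 5 lists of related, regulatory, senescence and synthesis loci moved by less than the SD within each list without a filter or at an RPKM of 5 or more. The median-ratio factors shifted all log2 ratios by 0.02. No paired analysis was possible because each genotype has 1 library, and for the same reason no library could be left out. Precision was lowest for *NOL*, at 198 and 177 counts.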

Other observations

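Loci annotated with senescence were not uniformly higher or lower beside the breakdown genes. Of 34 such loci, 25 passed the filter, with a median difference of 0.07. Of the 25, 2 passed the size rule upwards and 1 downwards, against 2.8% of all loci in either direction. LOC_Os03g54130, annotated as senescence-associated gene 12, a cysteine protease that marks senescing leaves in Arabidopsis, went from 320 RPKM in wild-type to 140 RPKM in the *wlp2s*-labelled library, a ratio of 0.437 (0.414 to 0.461). It was the most abundant of the 34 loci in wild-type. The other loci of this annotation past the filter had intervals that include equal levels. Their ratios were 1.06 (0.856 to 1.31) for LOC_Os09g38920, 0.929 (0.704 to 1.23) for LOC_Os06g38450 and 1.39 (0.783 to 2.52) for LOC_Os09g21370. LOC_Os07g49114, annotated as senescence associated gene 20, had a ratio of 0.528 (0.400 to 0.692), and LOC_Os06g50330 had 0.813 (0.665 to 0.994). LOC_Os03g18770, also annotated as senescence associated gene 20 and with more reads, had a ratio of 1.04 (0.902 to 1.19). In the other direction, LOC_Os10g40934, annotated as senescence-related gene 1 and with divided reads, was 2.08-fold higher (1.89 to 2.28). With the same annotation, LOC_Os10g40990 had a ratio of 1.02 (0.852 to 1.23) and LOC_Os03g63900 of 0.943 (0.729 to 1.22). LOC_Os03g32470 and LOC_Os09g18390, also of this annotation but with few reads, had 0.216 (0.0533 to 0.657) and 7.30 (1.70 to 65.8). LOC_Os12g17880, annotated as a senescence-associated E3 ubiquitin ligase, was 1.46-fold higher (1.23 to 1.74). LOC_Os01g21250, annotated as senescence-associated gene 21, was 1.35-fold higher (1.09 to 1.67). LOC_Os03g45420, with the same ligase annotation, had a ratio of 1.13 (0.862 to 1.48).

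Synthesis of chlorophyll and related pigments was followed through the 29 loci that KEGG places in porphyrin and chlorophyll metabolism. Of these, 6 are described above (*NYC1*, *NOL*, *PAO*, *RCCR*, LOC_Os10g28370 and LOC_Os10g41780), and all but LOC_Os10g41780 were listed as breakdown loci. The synthesis loci named here were chosen after their values were seen. Of the 29, 0 passed the size rule, against 2.8% of all loci, and the median difference was -0.04. The lowest ratio among them, 0.690 (0.649 to 0.732), belonged to LOC_Os10g35840, annotated as glutamyl-tRNA reductase, the enzyme at the entry to the pathway, with 2623 wild-type counts against 1858 in the *wlp2s*-labelled library. The highest, 1.52 (1.18 to 1.97), belonged to LOC_Os06g04150, annotated as magnesium-protoporphyrin IX methyltransferase. By counting interval 9 of the 29 were lower and 3 higher, against 15.4% and 16.1% of all loci, and *PAO*, *RCCR* and LOC_Os10g41780 are among the 9. In a separate list of 9 synthesis enzymes, 1 passed the size rule, downwards, against 2.8% of all loci in either direction. This was LOC_Os04g58200, annotated as protochlorophyllide oxidoreductase A, an enzyme of a late step, which had 36 counts in wild-type and 3 in the *wlp2s*-labelled library, a ratio of 0.0811 (0.0160 to 0.257). LOC_Os10g35370, with the same annotation and far more reads, had a ratio of 0.746 (0.695 to 0.800). The 9 loci together were at 0.956 of wild-type (0.938 to 0.975), but LOC_Os03g20700, annotated as the CHLH subunit of magnesium chelatase, holds 11664 of their 20934 wild-type counts and had a ratio of 1.02 whose interval includes equal levels.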
